A study of Rattus norvegicus with 19 samples.

Results

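Mast cells sorted from the hypothalamus of newborn rats were compared with mast cells sorted from bone marrow of pups of the same age. The comparison took 2 hypothalamus and 4 bone marrow libraries at postnatal day 2 (PN2), 6 of the 19 libraries of the series, and was chosen by tissue and age alone. All pups were wild type and were perfused with PBS. Each library held cells pooled from 6 pups, so single animals cannot be told apart and each p-value rests on the spread from pool to pool. For the transcript tests that spread was estimated over all 19 libraries, so much of it came from tissues and ages not compared here. Cells of both tissues were enriched on a Percoll gradient and sorted by flow cytometry as live singlets positive for FcεRI, strong for CD45 and negative for CD11b. The hypothalamus at PN2 has only 2 libraries, which is the main limit on every statement below.

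Mast cells are tissue-resident immune cells that store histamine and proteases in granules and release them when IgE bound to the receptor FcεRI is crosslinked. They arise from blood-forming precursors, and those of the bone marrow include immature cells, whereas mast cells of brain and skin reside around vessels, meninges and connective tissue. Basophils also carry FcεRI. The rows of the table carry Ensembl transcript identifiers that the sources used here do not pair with gene names, so no mast cell or basophil marker could be read in either tissue. The name mast cells is used for whatever the gate collected, and its purity was not tested.

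The hypothalamus libraries were shallower and less diverse than those of bone marrow. They held 5495252 and 5607810 estimated counts, against 16196856 to 22563833 in bone marrow. With every library thinned to 5495201 counts, 15823 and 13150 transcripts had a count in hypothalamus replicates 1 and 2, against 16470 to 17023 in bone marrow. The 10 most abundant transcripts took 21.6% and 34.5% of the counts in hypothalamus and 13.2% to 20.5% in bone marrow. None of these ranges overlapped. In exact permutation tests, made two-sided by doubling the one-sided value, each gave p = 0.133. That is the smallest value this doubled test allows with 2 against 4 libraries. The adjusted value over 6 such measures was 0.133 too.

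Hypothalamic and bone marrow mast cells differed in 5482 of 20521 transcripts tested, or 26.7%, at an adjusted p below 0.05 in edgeR's quasi-likelihood test. The directions were balanced: 2740 transcripts (13.4%) were higher in hypothalamus and 2742 (13.4%) were lower. The median called rise had a log2 fold change of 2.31, and the median called fall was -1.51. The median over all transcripts tested was -0.08. Because RNA was measured in bulk, fewer cells of a kind and less RNA per cell cannot be told apart for any of these transcripts. The number of transcripts tested differed between alternative fits. After thinning all libraries to equal depth, 5280 of 17677 transcripts tested were called, and 4924 of them were among the 5482. With limma voom, which weights each library by its quality, 2287 of 20521 were called. With only the 6 libraries compared in the fit, 2368 of 16001 were called. Of these, 2159 and 2257 were among the 5482.

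**Figure D1:**
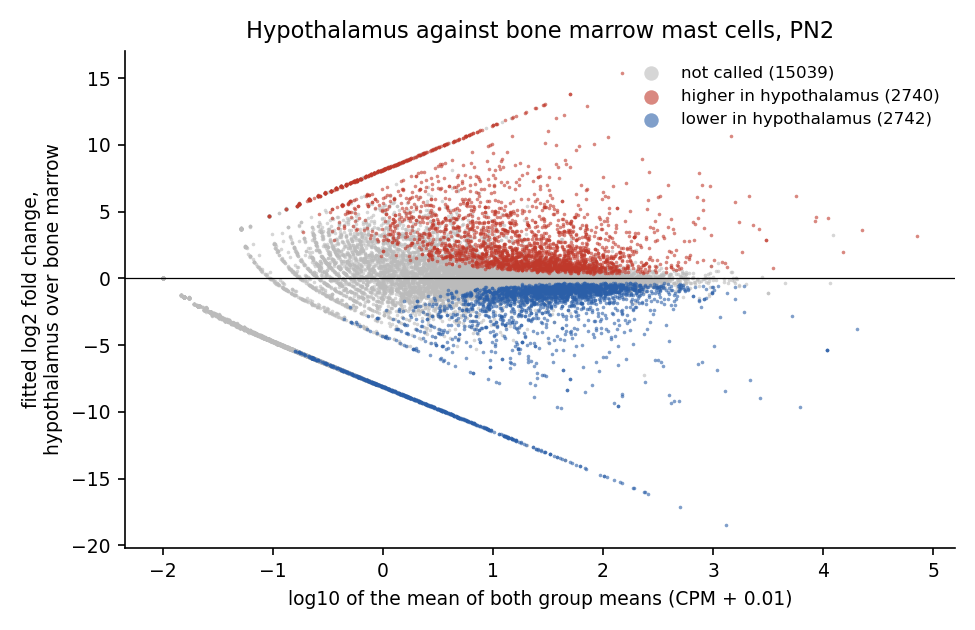
Each point is 1 of 20521 transcripts. The x axis gives the log10 of the mean of both group means in CPM plus 0.01, where CPM is a share of the library's counts after scaling, and the y axis the fitted log2 fold change, hypothalamus over bone marrow. Red points are the 2740 transcripts called higher in hypothalamus, blue points the 2742 called lower and grey points the rest. The straight edges of the cloud are transcripts with 0 counts in one group, whose fitted values are not bounds.

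More abundant transcripts were called more often. Level here is the mean of both group means in CPM, a transcript's share of its library after scaling by TMM, edgeR's trimmed-mean normalization between libraries. Of 5835 transcripts below 1 CPM, 8.33% were called. The share was 27.3% of 5362 transcripts at 1 to 10 CPM, 36.7% of 7698 at 10 to 100 CPM and 42.6% of 1558 at 100 to 1000 CPM. Among the 68 transcripts of at least 1000 CPM, 60.3% were called. The balance of directions also varied with level. At 1 to 10 CPM, 15.5% of transcripts were higher and 11.9% lower in hypothalamus, while at 100 to 1000 CPM 16.3% were higher and 26.3% lower. The median standard error of the log2 fold change was 2.94 below 1 CPM, 0.88 at 1 to 10 CPM and 0.27 at 10 to 100 CPM, so that small changes could be called only in the more abundant transcripts.

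**Figure D2:**
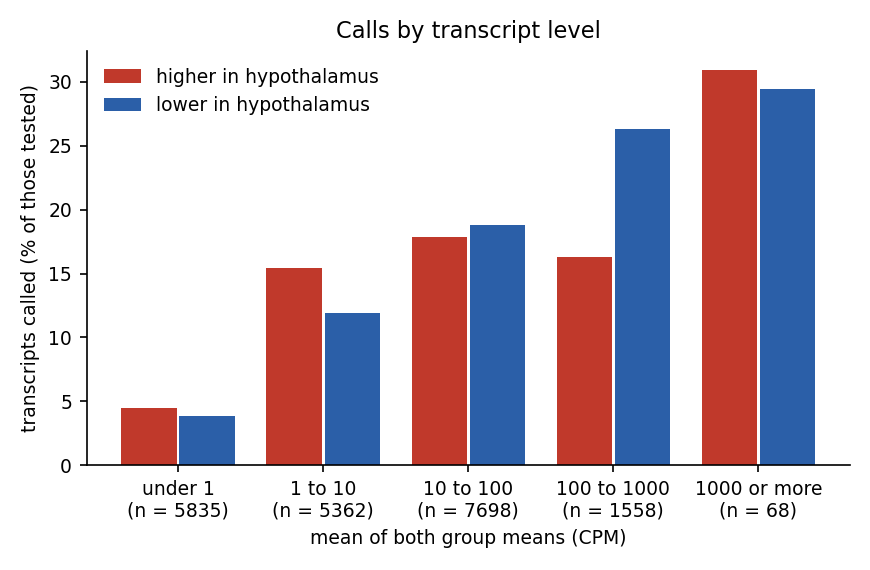
Bars give the percentage of tested transcripts called higher (red) or lower (blue) in hypothalamus, by the mean of both group means in CPM. Calls rise from 4.46% higher and 3.87% lower below 1 CPM to 30.9% and 29.4% at 1000 CPM or more, and at 100 to 1000 CPM the lower calls outnumber the higher ones.

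Many differences were large. By the fitted fold, 1510 transcripts (7.36% of those tested) were at least 4-fold higher in hypothalamus and 1139 (5.55%) at least 4-fold lower. A fold against a group with 0 counts has no fixed value, and here it is a lower bound set against 3 counts over the whole group. Counted at these bounds, the same 1510 were at least 4-fold higher and 1024 at least 4-fold lower. At least 16-fold were 834 higher and 444 lower transcripts, at least 64-fold 316 and 158, and at least 1024-fold 20 and 9. The medians at these bounds were 2.30 for the higher and -1.39 for the lower transcripts. These counts changed with the fit: limma voom gave 983 at least 4-fold higher and 506 lower. Testing only the 11801 transcripts of 5 CPM in 2 or more of the libraries compared left 786 and 722. A fit of just the 6 libraries, which tested 16001 transcripts, gave 715 and 770. Without hypothalamus replicate 1, 1967 were at least 4-fold lower.

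Some transcripts had no counts in hypothalamus or none in bone marrow. Among the transcripts tested, 1636 had 0 counts in all 4 bone marrow libraries. Of these, 330 (20.2%) were called higher in hypothalamus, against 13.4% of all transcripts tested. The 1636 passed the filter only through other libraries, which can include those of hypothalamus, and could not be called lower. Their share called higher is therefore not read as an excess. These 330 had a median level of 1.87 CPM in hypothalamus, and 79 of them had counts in both hypothalamus libraries. In 96 the bound was at least 100-fold and in 10 at least 1000-fold. In the other direction, 4191 transcripts had 0 counts in both hypothalamus libraries. Of these, 575 (13.7%) were called lower, close to the 13.4% over all transcripts tested. The 4191 likewise passed the filter only through other libraries and could not be called higher. All but a few of the 575 were seen throughout bone marrow, with 566 having counts in all 4 libraries, at a median of 3.31 CPM. The bound was at least 100-fold for 61 of the 575 and at least 1000-fold for 9. Many members of both sets had counts in other groups. Per library, 69.7% to 74.2% of the 330 were seen in hippocampus at PN2 and 50.3% to 68.2% in skin. Of the 575, 69.0% to 80% were seen in hippocampus at PN2 and 69.6% to 78.6% in skin. The PN7 hypothalamus library had counts for 53.0% of the 330 and 51.3% of the 575. A count of 0 is weaker evidence in hypothalamus, since 3 counts over both libraries correspond to 0.275 CPM there and 3 counts over the 4 bone marrow libraries to 0.0339 CPM.

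Nearly all falls, but fewer of the rises, separated every library of one tissue from every library of the other. Of the 2742 lower transcripts, 2641 (96.3%) had both hypothalamus libraries below all 4 bone marrow libraries. Of the 2740 higher transcripts, 2113 (77.1%) had both hypothalamus libraries above them. Over all transcripts tested, 22.4% were separated in the lower and 14.2% in the higher direction. The calls came from these same libraries, which favours separation among the called transcripts, so these shares are only a description. Counts of 0 enter both shares. Of the lower transcripts, 575 had 0 counts in the shallower hypothalamus libraries, and 566 of these had counts in all 4 bone marrow libraries. Of the higher ones, 330 had 0 counts in bone marrow, and 79 of these had counts in both hypothalamus libraries. The effect of depth on these shares was not tested. Among the 15039 transcripts not called, 1954 were separated downwards and 801 upwards.

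The 2 hypothalamus libraries differed from each other more than any pair of bone marrow libraries in the transcripts not called. On a log2(CPM + 1) scale, the median size of the difference between both hypothalamus libraries was 0.53 over these 15039 transcripts, against 0.14 to 0.40 over the 6 pairs of bone marrow libraries. They differed by more than 4-fold in 12.7% of these transcripts, and bone marrow pairs in at most 3.69%. The set not called was chosen by the same test, in which a wide spread between libraries can keep a transcript from being called. The hypothalamus libraries were also shallower, and the spread was not measured at equal depth. The called sets were chosen for a high level in one tissue and a low level in the other, and this scale compresses the spread of low values, so their spreads are given only as a description. Over the higher transcripts the median was 0.81 in hypothalamus and 0.14 to 0.33 in bone marrow pairs. The hypothalamus libraries differed by more than 4-fold in 17.4% of the higher transcripts. Replicate 1 held the larger value in 337 of these transcripts and replicate 2 in 139. Over the lower transcripts the hypothalamus libraries differed by a median of 0.33, and bone marrow pairs by 0.14 to 0.44. Of the higher transcripts, 2312 had counts in both hypothalamus libraries, 341 in replicate 1 only and 87 in replicate 2 only.

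**Figure D3:**
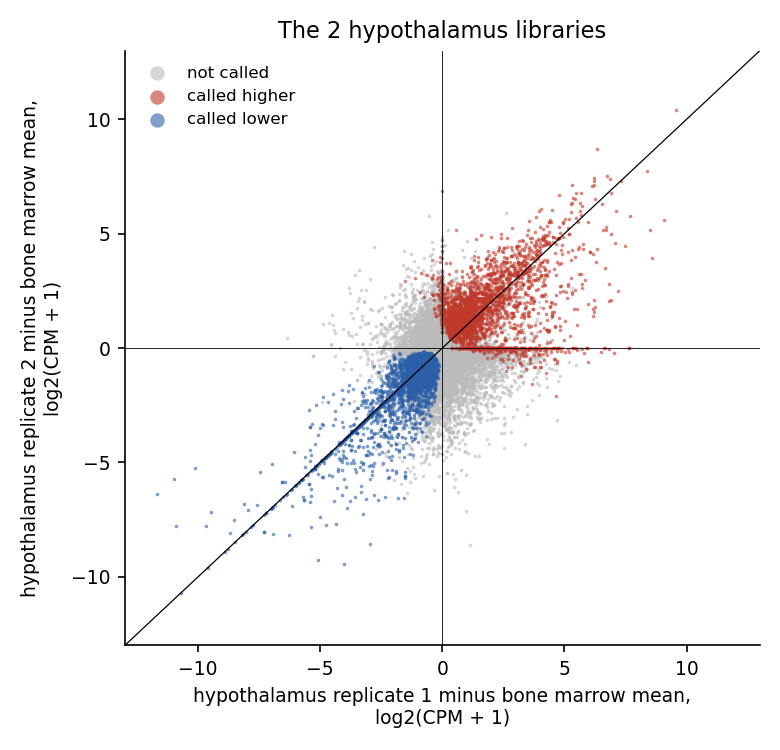
Each point is a transcript. The axes give the difference of hypothalamus replicate 1 (x) and replicate 2 (y) from the mean of the 4 bone marrow libraries, in log2(CPM + 1), with equal values on the diagonal. Called transcripts are red (higher) or blue (lower). The red points spread along the x axis at y near 0 are transcripts raised in replicate 1 and not in replicate 2. For the higher transcripts the median size of the difference between both libraries is 0.81.

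Each hypothalamus library was also set alone against the 4 bone marrow libraries, with the lone library assumed to vary like the other groups. Called the same way with either library alone were 1181 higher transcripts (43.1% of those called) and 1282 lower ones (46.8%). A further 126 higher and 456 lower transcripts were called with neither library alone. Over all transcripts tested, 194 were called in opposite directions by the 2 libraries. The library used also set the balance of directions. Without replicate 1, 2397 transcripts were higher and 3732 lower, so that 39.1% of calls were higher against 50% with both, and the median log2 fold change over all transcripts moved to -0.505. Without replicate 2, 2309 were higher and 2157 lower, with a median of -0.149.

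The calls that depended least on these choices were fewer. Over 16 alternatives, which changed the scaling, the test, the filter, the depth or the libraries used, 702 transcripts (3.42% of those tested) were called higher and 534 (2.6%) lower every time. Among all called transcripts, 812 higher and 1007 lower ones reached 50 CPM in the higher tissue and did not overlap between libraries. Of the 20521 tested, 385 higher and 375 lower transcripts met this rule and were also called the same way in every alternative. The 385 took 18.9% and 29.7% of the counts in the hypothalamus libraries and 2.83% to 3.82% in bone marrow. The 375 took 2.96% and 2.30% in hypothalamus and 12.2% to 18.4% in bone marrow, where replicate 4 was the lowest. Both sets were chosen from these same libraries by level and lack of overlap. A contrast in these shares is therefore built in and was not tested. In hippocampus at PN2 the 385 took 14.1% to 16.7% and the 375 took 2.38% to 2.76%. In skin they took 16.3% to 17.9% and 2.42% to 2.76%.

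The transcripts that differed by at least 4-fold carried a large part of each tissue's RNA. The 1510 higher ones took 28.7% and 38.3% of the counts in hypothalamus replicates 1 and 2 and 2.75% to 4.06% in the bone marrow libraries. The 1139 lower ones took 1.27% and 0.861% in hypothalamus and 24.0%, 23.0%, 23.7% and 16.4% in bone marrow replicates 1 to 4. These sums describe sets that the comparison itself chose and were not tested. Few transcripts dominated them. In hypothalamus 3 of the 1510 made up 50% of their mean summed CPM, and in bone marrow 4 of the 1139 did. Without those 3, the higher set still summed to 140677 and 181943 CPM in hypothalamus, against 8800 to 13899 CPM in bone marrow.

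In both sets the libraries of the other groups held shares closer to those of hypothalamus than to those of bone marrow. These libraries are not in the contrast but are not independent of the choice, since the filter, the scaling and the spread were set over all 19. The 1510 higher transcripts took 26.8% to 30.3% of the counts in the 4 hippocampus libraries of PN2, 25.5% to 28.6% in the 5 skin libraries and 25.8% in the single hypothalamus library of PN7. The 1139 lower transcripts took 0.705% to 0.772% in hippocampus and 0.794% to 0.944% in skin. In the hypothalamus library of PN7 they took 3.23%, above every other library outside bone marrow. Relative to its bone marrow mean, the set stood at 5.65% and 4.94% in PN2 hypothalamus, 3.76% to 4.06% in hippocampus, 4.29% to 4.51% in skin and 14.2% in the PN7 hypothalamus library. Few transcripts held these reads. The set's 5 most abundant transcripts in PN2 hypothalamus held 50.8% and 54.6% of the set's CPM in the PN2 hypothalamus libraries. They held 63.1% in the PN7 hypothalamus library and 48.4%, 49.0%, 49.3% and 30.0% in bone marrow replicates 1 to 4. In hippocampus they held 4.19% to 7.88% and in skin at most 0.612%. The 5 were ranked by their PN2 hypothalamus level, so a high share there is built in. Without these 5, the set stood at 5.12% and 4.14% of its bone marrow mean in PN2 hypothalamus, 9.63% in the PN7 hypothalamus library, 6.54% to 7.16% in hippocampus and 7.87% to 8.28% in skin. The order of PN2 hypothalamus against hippocampus and skin thus changed once the 5 were left out. Leaving out transcripts ranked by their PN2 hypothalamus level favours such a change, so nothing is concluded from it. Since the set was chosen for low values in the PN2 hypothalamus libraries, a lower sum there is built in.

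**Figure D4:**
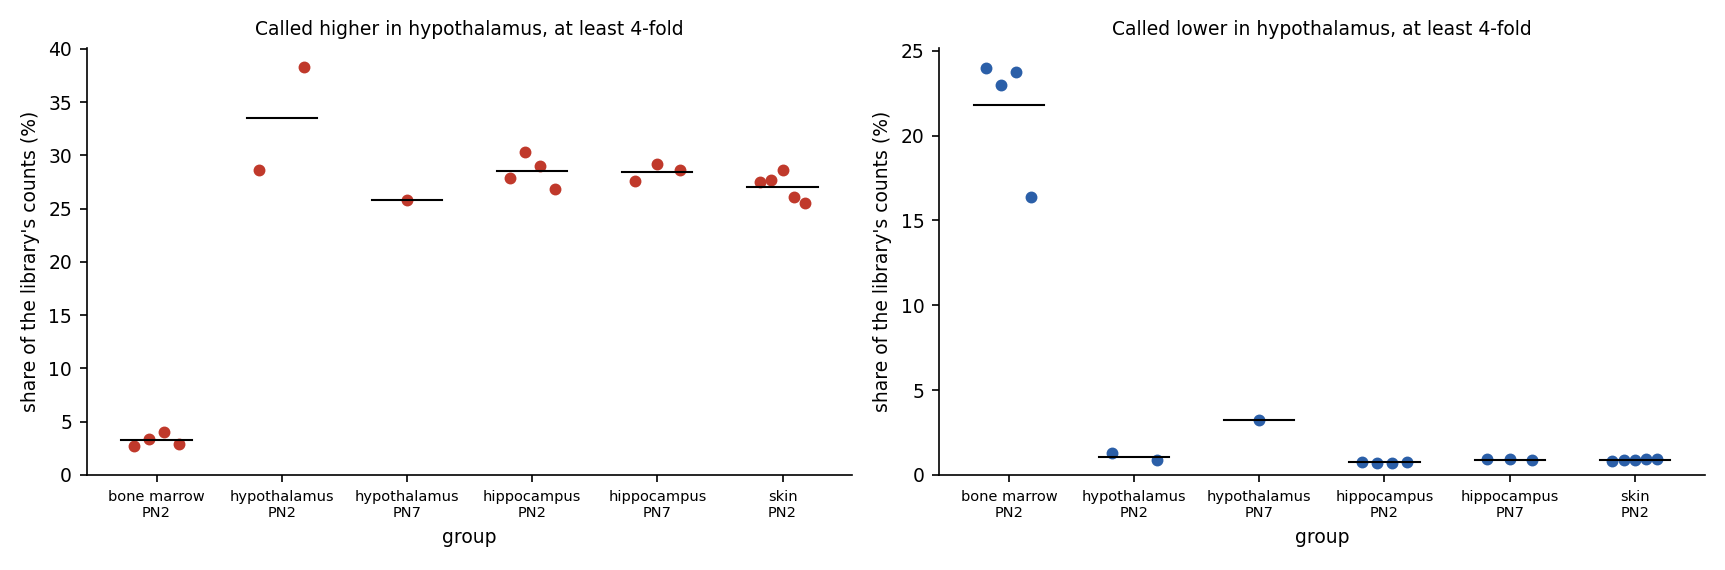
Each point is a library and each line a group mean. The y axes give the percentage of the library's counts in the 1510 transcripts at least 4-fold higher (left) and the 1139 at least 4-fold lower (right) in hypothalamus than in bone marrow at PN2. Bone marrow stands apart from all other groups in both panels, at no more than 4.06% on the left and no less than 16.4% on the right.

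The transcript with the most counts differed between both tissues. The leading transcript of hypothalamus, chosen after its values were seen, reached 62114 and 193460 CPM in hypothalamus replicates 1 and 2. It held 11942, 11931, 19016 and 15044 CPM in bone marrow replicates 1 to 4. The hypothalamus libraries lay above all bone marrow libraries, and replicate 2 lay far above replicate 1. On the log2 scale the fitted difference was 3.14 ± 0.53 (SE; adjusted p = 0.000335, edgeR). The same transcript held 51094 CPM in the PN7 hypothalamus library, 7000 to 8965 CPM in hippocampus at PN2 and 2901 to 17853 CPM in skin. In hippocampus at PN7 it held 19270, 30875 and 15557 CPM in replicates 1 to 3. Replicates 1 and 2 there lay above all bone marrow libraries. The leading transcript of bone marrow, chosen in the same way, held 45778, 42644, 47854 and 16091 CPM in bone marrow replicates 1 to 4, with replicate 4 the lowest. It held 2625 and 2848 CPM in the hypothalamus libraries, and the fitted difference was -3.80 ± 0.42 on the log2 scale (adjusted p = 4.98e-06, edgeR, with the SE after ±). In the PN7 hypothalamus library it reached 6809 CPM, whereas hippocampus at PN2 held 135 to 221 CPM and skin 11.6 to 17.5 CPM. Hippocampus at PN7 held 485 to 713 CPM.

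Of the 385 and 375 transcripts above, those with the widest gap between the nearest libraries of both tissues are given by identifier. The 2 higher ones were near absent from bone marrow. ENSRNOT00000010171.4 held 2080 and 3745 CPM in the hypothalamus libraries and 1.13, 1.51, 1.81 and 2.72 CPM in bone marrow replicates 1 to 4. The lowest hypothalamus library was thus 764-fold above the highest bone marrow library. On the log2 scale the difference was 10.64 ± 0.33 (SE; adjusted p = 7.29e-12, edgeR). It held 2694 to 3171 CPM in hippocampus, 2449 to 3171 CPM in skin and 2734 CPM in the PN7 hypothalamus library. Hypothalamus did not differ detectably from hippocampus, with a log2 difference of -0.02 ± 0.26 (SE; adjusted p = 1, edgeR), or from skin, with 0.13 ± 0.25 (SE; adjusted p = 0.78, edgeR). Between hypothalamus and these tissues 6.21% and 13.1% of all transcripts were called.

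ENSRNOT00000010645.7 held 117 and 169 CPM in the hypothalamus libraries and 1 count over all bone marrow libraries, in replicate 3. From 1527 counts against 1, the ratio was 12353 with a 95% counting interval from 2214 to 488218 (adjusted p = 1.32e-07, edgeR). The ratio rests on that 1 count. On the log2 scale the fitted value was 12.92, and it was 11.12 after thinning. Without bone marrow replicate 3 it was 14.26, which is then set against 0 counts and is no bound. The interval covers counting error only, as amplification by PCR without molecular identifiers precedes the counts. The transcript held 257, 309, 348 and 318 CPM in hippocampus replicates 1 to 4, all above both hypothalamus libraries. That difference, -1.11 ± 0.63 on the log2 scale (SE), was not called (adjusted p = 0.302, edgeR). In skin replicates 1 to 5 it held 51.2, 57.0, 77.0, 8.17 and 12.2 CPM, all below both hypothalamus libraries. The difference from skin was 1.80 ± 0.54 on the log2 scale (SE; adjusted p = 0.0382, edgeR). The PN7 hypothalamus library held 39.6 CPM, within the range of skin.

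The 2 lower transcripts had 0 counts in both hypothalamus libraries. ENSRNOT00000021861.4 held 682, 523, 578 and 259 CPM in bone marrow replicates 1 to 4 and was at least 1860-fold lower in hypothalamus (adjusted p = 0.000358, edgeR). It also had 0 counts in the PN7 hypothalamus library, at most 0.836 CPM in hippocampus at PN2 and at most 2.05 CPM in skin. ENSRNOT00000048378.5 held 264, 281, 256 and 381 CPM in bone marrow replicates 1 to 4 and was at least 1075-fold lower in hypothalamus (adjusted p = 4.22e-05, edgeR). It held 1.36 CPM in the PN7 hypothalamus library, at most 1.13 CPM in hippocampus at PN2 and at most 1.61 CPM in skin. For neither transcript did hypothalamus differ detectably from hippocampus (adjusted p = 0.653 for ENSRNOT00000021861.4 and 0.486 for ENSRNOT00000048378.5, edgeR) or from skin (0.361 and 0.295). Without hypothalamus replicate 1, whose counts make up part of the floor, the bounds are 821-fold for the first and 475-fold for the second. Without replicate 2 they are 1039-fold and 600.4-fold.

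**Figure D5:**
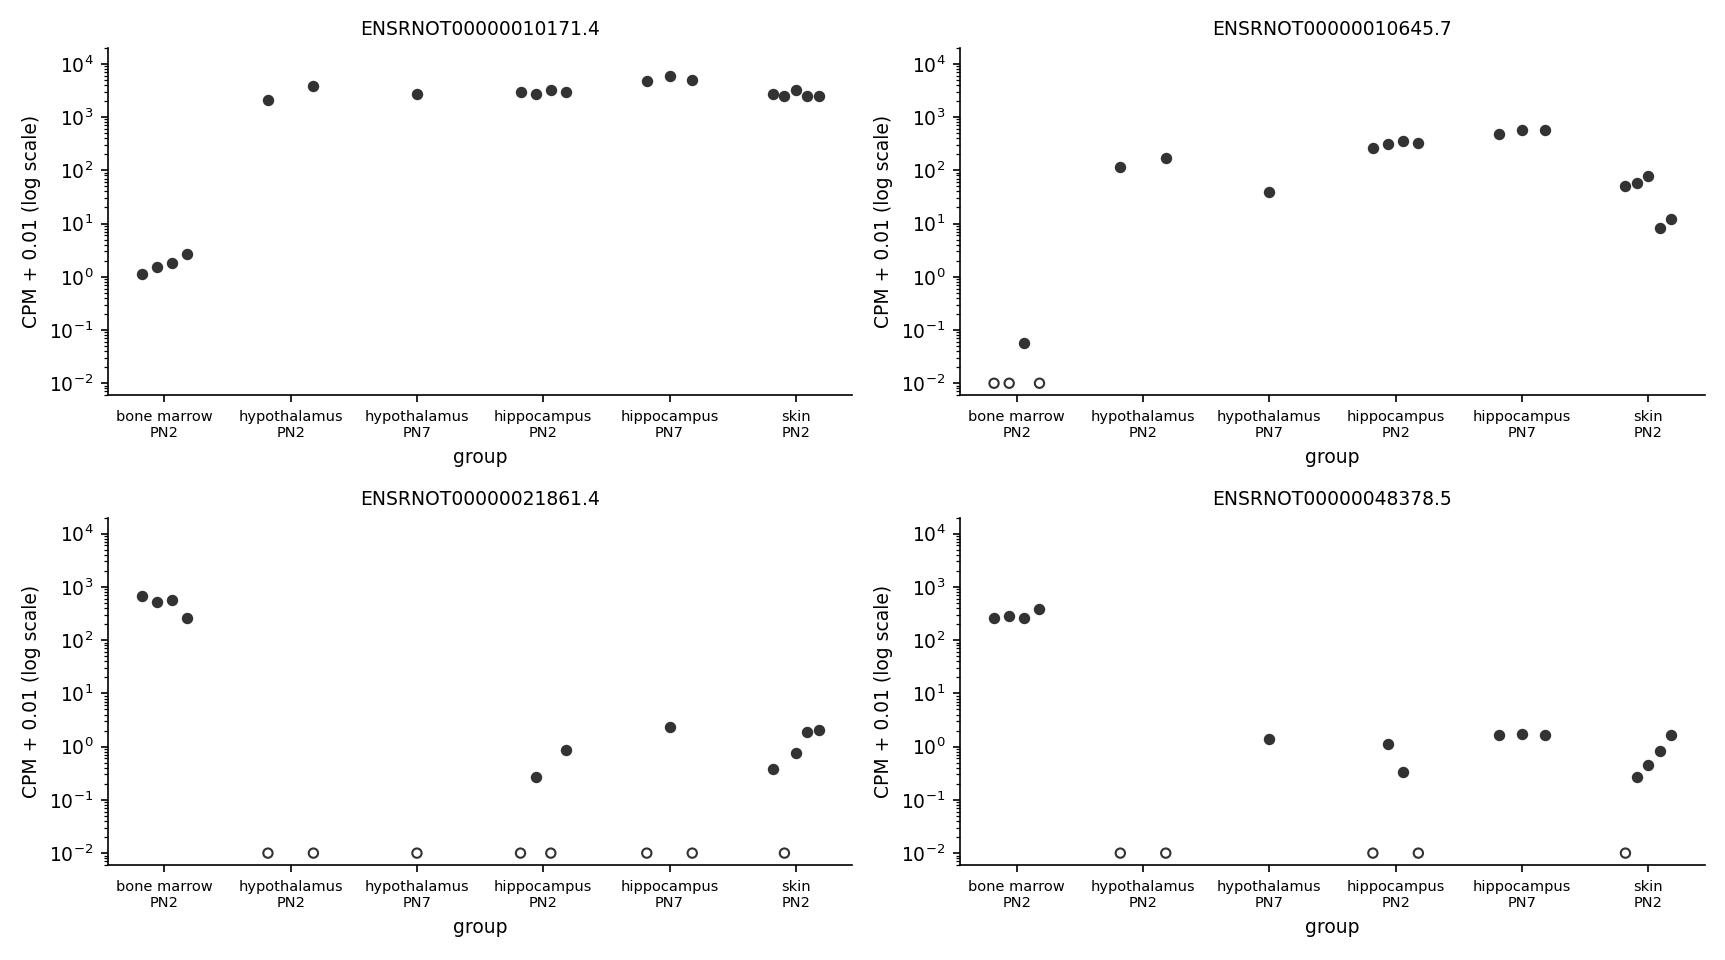
Each panel shows 1 transcript and each point a library, with CPM plus 0.01 on a log axis and open circles for libraries with 0 counts. ENSRNOT00000010171.4 and ENSRNOT00000010645.7 lie at no more than 2.72 and 0.0464 CPM in bone marrow and at 8.17 CPM or more in every other library, while ENSRNOT00000021861.4 and ENSRNOT00000048378.5 lie at 259 and 256 CPM or more in bone marrow and at no more than 2.37 and 1.68 CPM elsewhere.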

How the data were processed

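The deposited values are estimated counts for 29107 Ensembl transcripts in 19 libraries, left unscaled by the authors. The rat build Rnor_6.0 and the tool kallisto are named per the submitters' processing notes; its version is not given in the sources used here. Reads shared by similar transcripts are split by this tool, so isoforms and near-identical copies are uncertain. Per the labels' protocols, cDNA came from a SMART-Seq v4 kit and libraries from Nextera XT. The gene table used here (GRCr8) holds an Ensembl identifier for 0 of 47357 genes, so gene lists and cell type markers could not be matched, and no sequence is shown.

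Counts were rounded and tested with edgeR 4.0.16 (R 4.3.3). filterByExpr kept 20521 transcripts, of which 2245 had values identical to another. One robust quasi-likelihood fit with TMM scaling held the 6 group means of all 19 libraries; calls were made at a Benjamini-Hochberg adjusted p below 0.05. Levels are CPM after TMM scaling. A standard error is the size of the log2 fold change divided by √F. Whole-library measures used SciPy 1.17.1. The fit was also run on simulated counts with known changes. Each transcript there had the same spread in every group, so unequal spread between groups was not examined.

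Named transcripts were called in the main fit and in all 16 alternatives, reached 50 CPM in the higher group, did not overlap between groups and were ranked by the ratio of the nearest libraries; the first 2 per direction are named. The alternatives were RLE size factors, voom with quality weights (limma 3.58.1), DESeq2 1.42.0, no filter, a filter at 5 CPM in 2 or more of the libraries compared, only the 6 libraries, the replicate block, thinning, merged duplicates of transcripts, a fit without libraries numbered 4 and 5, and leaving out each of the 6 libraries. The comparison, rule and alternatives were chosen with earlier results of these data known. The labels give no sequencing batch.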

Additional observations from a re-analysis of the deposited data

Results flagged for a closer look

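In 30 groups of 4 or 5 libraries examined for a library far from the rest, 2 stood out, and chance alone marks about 1 in 20. In bone marrow replicate 4 the most abundant transcript took 1.97% of the counts, against 4.60% or more in the other 3 bone marrow libraries. ENSRNOT00000010645.7 held 0.0464 CPM in bone marrow replicate 3, which is 1 count, and 0 in the other 3. With the others at 0, any count in 1 library would stand out, so this says nothing of its size.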

How the results depend on the processing

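The 4 named transcripts were called in the same direction in all 16 alternatives, as their rule required. Of the 5482 transcripts, 4 were called in the opposite direction without hypothalamus replicate 1 and 2 without replicate 2, and 0 under the other alternatives. The share of calls that were higher was 50% and ran from 39.1% without hypothalamus replicate 1 to 59.6% with limma voom. The number called ran from 2287 of 20521 tested to 6129 of 20412 tested. Limma voom gave 2287 calls, 1362 higher and 925 lower, with 983 and 506 at least 4-fold higher and lower. With only the 6 libraries compared there were 2368 of 16001 tested, 1092 higher and 1276 lower, with 715 at least 4-fold higher. The stricter filter, which tests fewer transcripts, left 786 at least 4-fold higher and 722 at least 4-fold lower. Leaving out each library in turn gave 4466 to 6129 calls, 2225 to 2655 higher and 2157 to 3732 lower. At least 4-fold higher were 1227 to 1452 and at least 4-fold lower 903 to 1967, the largest without hypothalamus replicate 1. Bounds over these fits ran from 821-fold to 2165-fold for ENSRNOT00000021861.4 and from 475-fold to 1123-fold for ENSRNOT00000048378.5. With the replicate block 5036 transcripts were called, 2418 higher and 2618 lower. Deviations from the group means of same-numbered hypothalamus and bone marrow libraries correlated at -0.0226 and -0.0438. With only 2 hypothalamus libraries, their deviations mirror each other, so these values cannot decide whether the numbers pair the samples. The main fit did not treat them as pairs. The cause of the changes between fits was not tested. Low depth in hypothalamus limits calls of small changes and of falls to 0.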

Other observations

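The 100 transcripts with the most counts in each tissue were partly the same. The lists of hypothalamus and bone marrow shared 56 transcripts. Of the hypothalamus list, 49 were called higher in hypothalamus, 34 of them by at least 4-fold, 9 were called lower and 42 were not called. Of the bone marrow list, 44 were called lower in hypothalamus, 23 of them by at least 4-fold, 8 were called higher and 48 were not called. Over all transcripts tested, 13.4% were called higher and 13.4% lower, with 7.36% and 5.55% by at least 4-fold, and 60.3% of the 68 transcripts of at least 1000 CPM were called in either direction. The lists were ranked by the level in one of the tissues compared, which favours calls towards that tissue. The hypothalamus list held 34.8% and 47.9% of the TMM-scaled total in its libraries, and the bone marrow list held 28.3% to 34.1%. These lists were drawn from the libraries compared and were not tested.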
